A study of Homo sapiens with 12 samples.

Results

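The genes described here are those of sterol and fatty acid synthesis, with the factors that control them, in RCC4 cells after silencing of WWTR1 and exposure to erastin. The list held 34 genes, of which 31 had a probe set naming them alone, out of 11963 genes measured. By role, 8 of 8 belonged to the mevalonate steps, 10 of 12 to the squalene and later sterol steps, 2 of 2 to cholesterol exit from lysosomes, 7 of 7 to SREBP control and 4 of 5 to fatty acid synthesis. CYP51A1 was left out because both of its probe sets also name a neighbouring gene, and FDFT1 and ACSS2 were not analysed here. The brightest probe set over all 12 arrays stood for each gene.

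RCC4 is an established human line from clear cell renal carcinoma, a tumour whose cells store cholesterol esters and neutral fat. All arrays were of that single line, 3 in each of 4 groups, described by the submitters as biological triplicates. One pair of groups received a non-targeting siRNA (siNT) and the other pair an siRNA against WWTR1, the gene for TAZ (siTAZ), for 2 days. Within each pair, one group then had the solvent DMSO (vehicle) and one had 1 µM erastin, a blocker of cystine uptake, for 7 hours. The labels do not say which siRNA sequence, or how many, the siTAZ groups received. The study asks what TAZ contributes to gene expression in these cells, and the comparisons are siTAZ against siNT in each medium, erastin against vehicle with each siRNA, and the difference between the siTAZ effects in the 2 media (the interaction).

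Cells build cholesterol from acetyl-CoA. The mevalonate steps make isoprenoid units, which are joined to squalene, closed to lanosterol and trimmed to cholesterol, while a separate set of enzymes turns citrate into fatty acids. Most of these genes are switched on by the membrane-bound SREBP transcription factors, which SCAP carries to the Golgi for cleavage when sterol is scarce and which the INSIG proteins hold in the endoplasmic reticulum when sterol is plentiful. Because of this shared switch, sterol depletion is known to raise the enzymes of the pathway together.

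The WWTR1 signal lay between 12.19 and 12.35 (log2) on the 6 siNT arrays and between 9.09 and 9.46 on the 6 siTAZ arrays, with 12.2% of the control signal left (two-sided exact permutation p = 0.0022, the smallest that 6 against 6 can give). Array medians lay between 6.48 and 6.54, and no array stood apart from its group by correlation (0.996 to 0.999 within groups). Of 11 renal and clear cell carcinoma markers 9 were measured, with mean signals from 7.81 to 13.53, among them PAX8 at 10.61. The 19 measured of 22 markers of leukocytes, endothelial cells, red cells, hepatocytes and adipocytes had means from 2.59 to 6.43, and their average per group lay between 4.48 and 4.53. One member, MBTPS2, lay under the 90th percentile of those markers (5.99) in every group, with a highest group mean of 5.65. Levels are log2 signals and are compared only between groups for the same probe set. Changes are log2 differences ± the standard error of the limma fit (n = 3 arrays per group), and the words rose and fell are kept for genes whose p, adjusted by Benjamini-Hochberg across the 11963 genes, was below 0.05.

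Promoter sequence is shown for the member that fell most after siTAZ (INSIG2), for the 2 that rose most (SC5D and HMGCS1) and for SREBF2, which encodes the sterol-responsive SREBP2 and was the sole member with an exact match to the sterol regulatory element searched. These 4 were chosen after their values were seen. Each run is the 150 bases before the outermost RefSeq start (GRCh38.p14), 5′ to 3′ on the gene's strand, with motif matches in capitals: TCACCCCAC with at most 1 mismatch (sterol regulatory element), CCAAT (NF-Y), CACGTG (E-box) and GGAATG (TEAD), each on both strands.
INSIG2, chr2:118088321-118088470, plus strand: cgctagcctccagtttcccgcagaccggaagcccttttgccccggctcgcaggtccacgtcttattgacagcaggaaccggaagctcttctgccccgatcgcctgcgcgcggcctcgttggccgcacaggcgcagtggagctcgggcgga
SC5D, chr11:121292621-121292770, plus strand: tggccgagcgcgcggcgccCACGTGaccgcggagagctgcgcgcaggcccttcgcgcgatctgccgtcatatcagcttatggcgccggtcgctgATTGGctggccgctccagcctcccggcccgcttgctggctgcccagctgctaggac
HMGCS1, chr5:43313413-43313562, minus strand: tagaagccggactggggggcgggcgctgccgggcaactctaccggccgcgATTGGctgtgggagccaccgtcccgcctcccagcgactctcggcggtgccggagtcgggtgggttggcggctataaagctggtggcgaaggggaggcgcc
SREBF2, chr22:41832955-41833104, plus strand: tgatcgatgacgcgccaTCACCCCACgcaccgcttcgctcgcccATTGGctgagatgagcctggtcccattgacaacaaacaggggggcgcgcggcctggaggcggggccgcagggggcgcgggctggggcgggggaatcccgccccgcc

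In the shown stretch, SREBF2 held the sterol element at 133 to 125 bases before its start and an inverted CCAAT at 106 to 102. SC5D held a CACGTG at 131 to 126 and an inverted CCAAT at 56 to 52, HMGCS1 held an inverted CCAAT at 100 to 96, and INSIG2 held none of the 4 motifs. Over the 250 bases before each listed start, 6 of the 28 members with a RefSeq promoter had a sterol element match, against 10.6% of 27305 genes. CCAAT stood in 19 of the 28 against 37.0% of genes, CACGTG in 3 against 7.73% and GGAATG in 4 against 14.3%. The members with a sterol element match were FDPS, HSD17B7, DHCR7, MVK, ACLY and SREBF2. None of these passed the test in both media, but SREBF2 rose in vehicle and DHCR7 fell under erastin. Of the 8 members with a promoter that did pass in both, 0 had the sterol element, 4 had CCAAT, 1 had CACGTG and 1 had GGAATG. With a sterol element match in 10.6% of genes, 0 of 8 does not show a lack of it among these members. Overlapping matches of different motifs were not merged, and a match of these letters is a description and not a binding site.

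Silencing of WWTR1 did not move the pathway one way. In vehicle 5 of the 31 members rose (background 14.7% of all genes) and 6 fell (13.9%), so that 11 or 35.5% passed the test in limma against 28.6% of all genes. Under erastin 6 rose (15.6%) and 8 fell (12.6%), so that 14 or 45.2% passed against 28.2%. The median change of the members was −0.04 in vehicle and −0.02 under erastin, and that of all genes −0.01 and 0.01. The median size of change, whatever its sign, was 0.14 for the members and 0.12 for all genes in vehicle, and 0.15 and 0.12 under erastin. Groups did not overlap for 20 members in vehicle (43.8% of all genes) and for 19 under erastin (38.8%).

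The same members led in both media, in comparisons that share no arrays. Passing in both were 4 that rose (SC5D, HMGCS1, GGPS1 and MBTPS1) and 5 that fell (INSIG2, EBP, LBR, ACAT2 and ME1). A further 2 passed in vehicle alone (NPC2 and SREBF2) and 5 under erastin alone (NPC1, ACACA, INSIG1, DHCR7 and IDI1), 0 passed in opposite directions, and 15 passed in neither. Over the 31 members, which share arrays and are no replicates, the changes in vehicle and under erastin correlated at 0.96 (Pearson) and 0.84 (Spearman), and 24 had the same sign. Both media were fitted together, so they share the estimate of spread. These counts and correlations were not taken over all genes, so the agreement between media is not shown to be particular to the members.

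**Figure D1:**
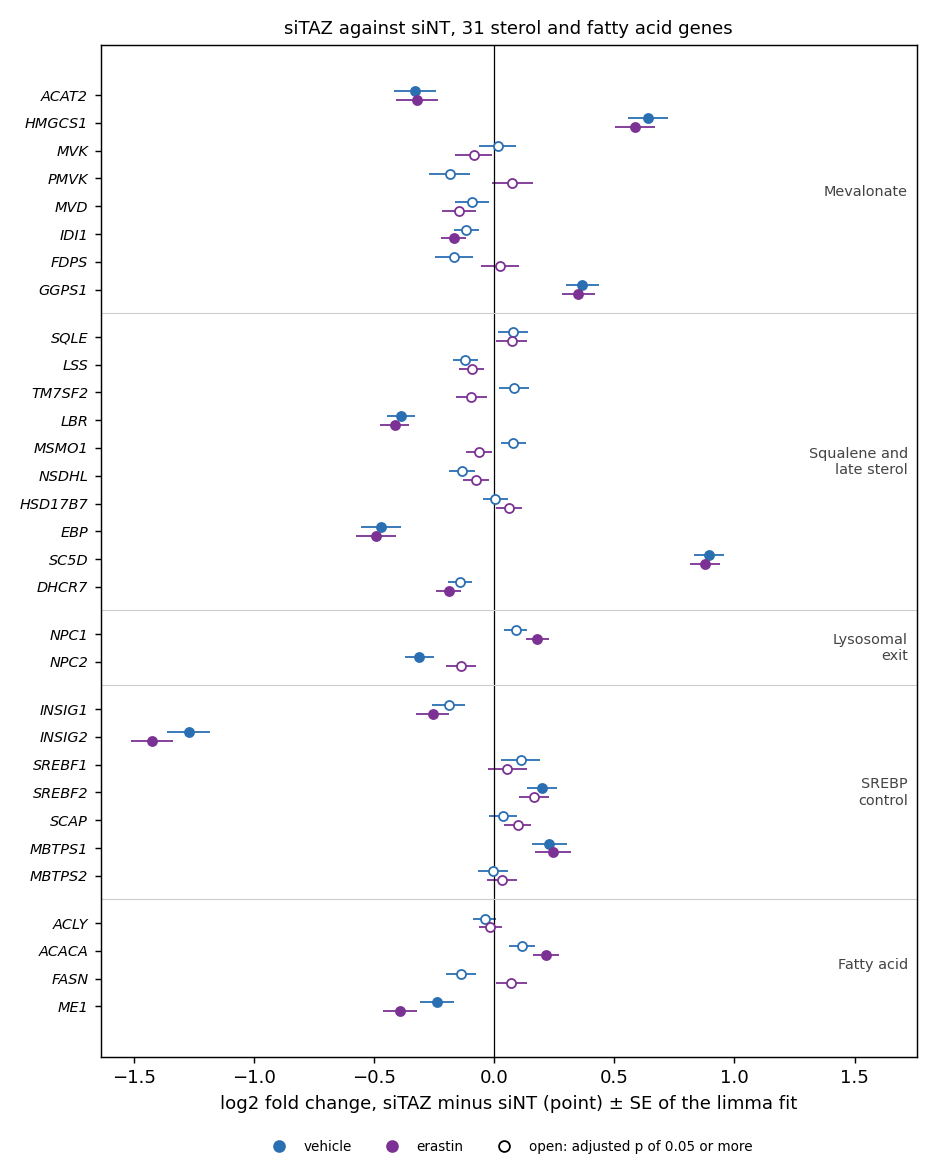
Change of each of the 31 members after siTAZ, as log2 fold change (x axis) by gene and role (y axis), in vehicle (blue) and erastin (purple), with bars for the SE of the limma fit (3 arrays per group) and filled points for adjusted p under 0.05. INSIG2 stands apart at −1.27 and −1.42, SC5D lies at 0.89 and 0.88, and each role with more than 2 members has points on both sides of 0.

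Among the mevalonate genes, 2 of 8 rose and 1 fell in vehicle, and 2 rose and 2 fell under erastin, with medians of −0.10 and −0.03. Of all genes 14.7% rose and 13.9% fell in vehicle, and 15.6% and 12.6% under erastin. Whether this or any later role differs from those shares was not tested. HMGCS1 encodes the cytosolic HMG-CoA synthase, the enzyme that commits acetyl units to the mevalonate route. Its log2 signals were 8.70, 8.42 and 8.61 in siNT vehicle, 9.34, 9.11 and 9.21 in siTAZ vehicle, 8.53, 8.46 and 8.63 in siNT erastin and 9.06, 9.12 and 9.19 in siTAZ erastin. All 6 siTAZ arrays lay above all 6 siNT arrays. HMGCS1 rose by 0.64 ± 0.08 in vehicle (1.56-fold, adjusted p = 9.56e-05 in limma) and by 0.59 ± 0.08 under erastin (1.5-fold, adjusted p = 0.00021 in limma). Its other probe set is dim, with a mean signal of 5.18, and gave 0.20 ± 0.10 and −0.15 ± 0.10; with the mean of both, the change under erastin was 0.22 and no longer passed (adjusted p = 0.0544 in limma).

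GGPS1, which makes the geranylgeranyl diphosphate used to anchor small GTPases, was the other mevalonate gene that rose. Its signals were 9.34, 9.38 and 9.33 in siNT vehicle against 9.81, 9.72 and 9.63 in siTAZ vehicle, and 9.31, 9.50 and 9.45 in siNT erastin against 9.81, 9.68 and 9.84 in siTAZ erastin. The siTAZ arrays were again above all siNT arrays. The rise was 0.37 ± 0.07 (adjusted p = 0.0015 in limma) and 0.35 ± 0.07 (adjusted p = 0.00213 in limma). A second probe set gave 0.42 ± 0.07 in vehicle, where it also passed, and 0.19 ± 0.07 under erastin, where it did not (adjusted p = 0.0683 over all probe sets).

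ACAT2, whose thiolase supplies the acetoacetyl-CoA that HMGCS1 uses, moved the opposite way. Its signals were 10.18, 10.05 and 10.37 in siNT vehicle and 9.98, 9.78 and 9.84 in siTAZ vehicle, and the groups came within 0.06 of each other without overlapping. Under erastin they were 10.32, 10.18 and 10.22 with siNT and 9.87, 10.03 and 9.85 with siTAZ. ACAT2 fell by 0.33 ± 0.09 in vehicle (adjusted p = 0.0131 in limma) and by 0.32 ± 0.09 under erastin (adjusted p = 0.0162 in limma). The call was lost when some single arrays were left out. In vehicle, adjusted p was 0.0556 without siNT replicate 3 and 0.0573 without siTAZ replicate 2, with changes of −0.24 and −0.29. Under erastin it was 0.0576 to 0.0641 without siNT replicate 1, siTAZ replicate 1 or siTAZ replicate 3, with changes of −0.30 to −0.28.

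IDI1, the isomerase of isopentenyl diphosphate, had a change of −0.12 ± 0.05 in vehicle (adjusted p = 0.129 in limma) and fell by 0.17 ± 0.05 under erastin (adjusted p = 0.0294 in limma). Its second probe set gave −0.10 ± 0.06 and −0.27 ± 0.06, and both are of a kind that can share sequence with other genes. Leaving out replicate 2 of siNT erastin, or replicate 1 or 2 of siTAZ erastin, ended the erastin call (adjusted p = 0.0882 to 0.108 in limma), as did the replicate number as a block (adjusted p = 0.0513). The middle enzymes did not pass in either medium: the kinase genes MVK and PMVK gave 0.01 and −0.18 in vehicle and −0.08 and 0.08 under erastin. The decarboxylase gene MVD gave −0.09 and −0.15, and FDPS, the farnesyl diphosphate synthase that bisphosphonates block, gave −0.17 and 0.02. The 95% intervals of these 4 ran from −0.37 (PMVK) to 0.18 (MVK) in vehicle.

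Of the 10 squalene and later sterol genes 1 rose and 2 fell in vehicle, and 1 rose and 3 fell under erastin, with medians of −0.06 and −0.08. The all-gene shares were 14.7% up and 13.9% down in vehicle, and 15.6% and 12.6% under erastin. SC5D, the lathosterol 5-desaturase that introduces the last ring double bond before DHCR7 acts, had the largest rise of all 31 members. Its signals were 9.23, 9.18 and 9.17 in siNT vehicle and 10.05, 10.11 and 10.10 in siTAZ vehicle. Under erastin they were 9.24, 9.11 and 9.37 with siNT and 10.14, 10.10 and 10.13 with siTAZ. The lowest siTAZ array stood 0.68 above the highest siNT array. SC5D rose by 0.89 ± 0.06 in vehicle (1.86-fold, adjusted p = 7.33e-07 in limma) and by 0.88 ± 0.06 under erastin (1.84-fold, adjusted p = 9.55e-07 in limma). Ranked among all 11963 genes, these were the rises at places 130 and 122. A second probe set had a mean signal of 2.99, near the bottom of the array's range, and gave −0.01 in both media; the mean of both probe sets gave 0.44 and 0.43 and still passed.

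EBP and LBR fell. EBP is the isomerase that shifts the sterol ring double bond just ahead of SC5D. Its signals were 9.81, 9.74 and 9.89 in siNT vehicle, 9.39, 9.32 and 9.30 in siTAZ vehicle, 9.67, 9.93 and 9.91 in siNT erastin and 9.31, 9.23 and 9.48 in siTAZ erastin. No siTAZ array reached an siNT array. The fall was 0.47 ± 0.08 in vehicle (adjusted p = 0.000881 in limma) and 0.49 ± 0.08 under erastin (adjusted p = 0.000682 in limma), and the other 2 probe sets gave −0.56 and −0.35 in vehicle and −0.36 and −0.16 under erastin, the last without a call (adjusted p = 0.237 over all probe sets).

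LBR, the lamin B receptor of the inner nuclear membrane, also carries sterol C14-reductase activity. Signals were 11.38, 11.31 and 11.27 in siNT vehicle, 10.95, 10.92 and 10.93 in siTAZ vehicle, 11.28, 11.09 and 11.28 in siNT erastin and 10.78, 10.81 and 10.82 in siTAZ erastin, again with all siTAZ arrays lowest. LBR fell by 0.39 ± 0.06 (adjusted p = 0.000362 in limma) and by 0.41 ± 0.06 (adjusted p = 0.000232 in limma). TM7SF2, the other C14-reductase gene, was near the dim range (group means of 5.91 to 6.08) and gave 0.08 ± 0.06 and −0.09 ± 0.06, which did not pass.

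DHCR7, the reductase that completes cholesterol, had a change of −0.14 ± 0.05 in vehicle (adjusted p = 0.0542 in limma) and fell by 0.19 ± 0.05 under erastin (adjusted p = 0.0141 in limma). Its vehicle value passed under 7 of the alternative settings, and its erastin call was lost when replicate 1 of siNT erastin (adjusted p = 0.0501) or replicate 1 of siTAZ erastin (adjusted p = 0.062) was left out. The other 5 genes of the branch did not pass in either medium. SQLE, the squalene epoxidase and a rate-limiting step, gave 0.08 ± 0.06 and 0.07 ± 0.06, with 95% intervals of −0.06 to 0.21 in both. A dimmer SQLE probe set gave −0.06 ± 0.11 in vehicle and 0.38 ± 0.11 under erastin, where it passed on its own (adjusted p = 0.0238 over all probe sets). The remaining SQLE probe set, which is dim, gave 0.09 ± 0.29 and, in the opposite direction, −0.53 ± 0.29 without passing. LSS, which closes squalene epoxide to lanosterol, gave −0.12 and −0.09, and the C4-demethylation genes gave 0.08 and −0.06 for MSMO1, −0.13 and −0.08 for NSDHL and 0.01 and 0.06 for HSD17B7. The NSDHL value in vehicle passed under 4 alternative settings (adjusted p = 0.0265 to 0.0472), and its dimmer probe set gave −0.14 ± 0.09 in vehicle and −0.28 ± 0.09 under erastin, where it passed (adjusted p = 0.0436 over all probe sets). The HSD17B7 probe set is also of the kind that can share sequence with other genes.

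**Figure D2:**
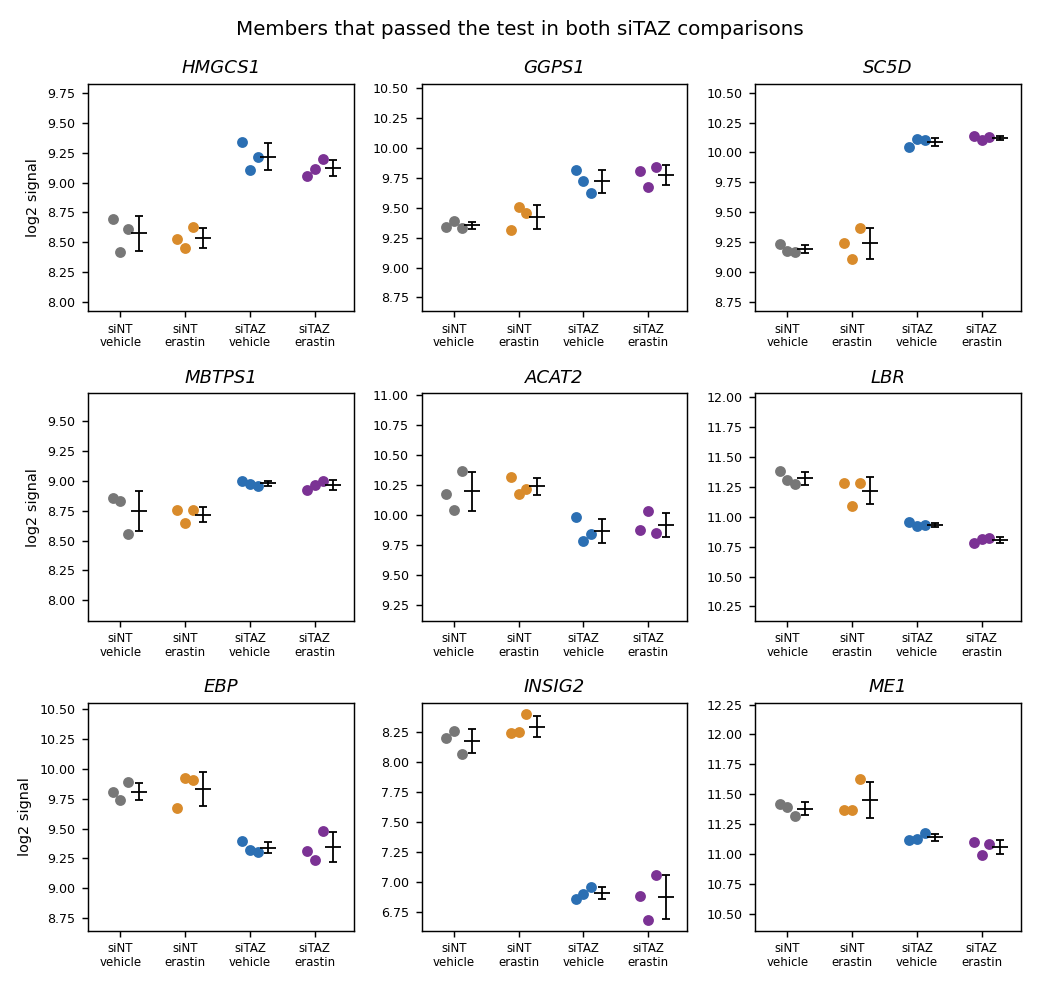
Log2 signal (y axis) on each of the 3 arrays of the 4 groups (x axis, coloured points) for the 9 members that passed in both siTAZ comparisons, with mean ± SD in black; each panel spans the same 1.9 log2 units. For HMGCS1, GGPS1, SC5D and MBTPS1 all siTAZ arrays lie above all siNT arrays, and for ACAT2, LBR, EBP, INSIG2 and ME1 below.

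The 2 genes of lysosomal cholesterol exit differed. NPC2, the soluble carrier that hands cholesterol to NPC1, had signals of 10.96, 10.93 and 11.13 in siNT vehicle and 10.68, 10.73 and 10.69 in siTAZ vehicle. It fell by 0.31 ± 0.06 (adjusted p = 0.00213 in limma), while under erastin the change was −0.14 ± 0.06 and did not pass (adjusted p = 0.127 in limma). NPC1, the membrane transporter, was lowest in siNT vehicle (11.30, 11.21 and 11.22), between in siNT erastin (11.31, 11.35 and 11.33) and in siTAZ vehicle (11.31, 11.37 and 11.32), and highest in siTAZ erastin (11.47, 11.52 and 11.55). The siTAZ change of NPC1 was 0.09 ± 0.05 in vehicle, which did not pass, and 0.18 ± 0.05 under erastin (adjusted p = 0.0151 in limma), a call lost without siTAZ erastin replicate 3 (adjusted p = 0.0565) and with the mean of its 2 probe sets, one of them dim (0.01, adjusted p = 0.939).

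Of 7 SREBP control genes 2 rose and 1 fell in vehicle, and 1 rose and 2 fell under erastin, with medians of 0.04 and 0.06. Beside them stand all-gene shares of 14.7% up and 13.9% down in vehicle, and 15.6% and 12.6% under erastin. INSIG2, which encodes one of the 2 retention proteins of the SREBP system, fell more than any other member. Its signals were 8.21, 8.26 and 8.07 in siNT vehicle and 6.86, 6.90 and 6.96 in siTAZ vehicle. Under erastin they were 8.24, 8.25 and 8.40 with siNT and 6.88, 6.69 and 7.06 with siTAZ. The highest siTAZ array lay 1.01 below the lowest siNT array. INSIG2 fell by 1.27 ± 0.09 in vehicle (2.41-fold lower, adjusted p = 7.37e-07 in limma) and by 1.42 ± 0.09 under erastin (2.68-fold lower, adjusted p = 3.4e-07 in limma). It was the sole member that changed at least 2-fold, against 157 of all genes in vehicle and 145 under erastin, and its falls were at places 30 and 17 among 11963 genes. A single probe set measured it.

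INSIG1, the other retention protein and itself an SREBP target, had signals of 10.26, 10.19 and 10.13 in siNT vehicle and 10.04, 9.90 and 10.07 in siTAZ vehicle. The change was −0.19 ± 0.07 in vehicle (adjusted p = 0.06 in limma), and under erastin INSIG1 fell by 0.26 ± 0.07 (adjusted p = 0.0144 in limma). Its 2 dimmer probe sets moved further: one gave −0.65 ± 0.11 and −0.63 ± 0.11, passing in both media, and one gave −0.27 ± 0.20 and −0.66 ± 0.20, passing under erastin. The erastin call of the brightest probe set was lost when replicate 1 of siNT erastin (adjusted p = 0.0567) or replicate 3 of siTAZ erastin was left out (adjusted p = 0.0638), and the vehicle value passed under 6 settings. These were the mean of the 3 probe sets (−0.37, adjusted p = 0.0195), both filters on dim genes (0.0378 and 0.0194), the trend and robust settings (0.0189), array weights (0.0137) and the fit without siTAZ erastin replicate 3 (0.0496).

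Changes of the SREBP genes themselves were small. SREBF2 rose in vehicle by 0.20 ± 0.06 (adjusted p = 0.0316 in limma), from 7.28, 7.18 and 7.31 to 7.54, 7.49 and 7.33, and had a change of 0.17 ± 0.06 under erastin (adjusted p = 0.0695 in limma). Leaving out either of replicates 1 and 2 in either vehicle group ended the SREBF2 call (adjusted p = 0.0612 to 0.131), as did a second quantile normalisation, the mean of probe sets, a fit of the 2 groups alone and the replicate block (adjusted p = 0.0532 to 0.0692); the erastin value passed with both filters on dim genes (adjusted p = 0.043 and 0.0231), with array weights (0.0222) and without siTAZ vehicle replicate 3 (0.0463). SREBF1, the gene of the SREBP1 forms that favour fatty acid genes, gave 0.11 ± 0.08 and 0.06 ± 0.08 and did not pass. MBTPS1, the site-1 protease that makes the first cut in SREBPs, rose by 0.23 ± 0.07 (adjusted p = 0.0348 in limma) and 0.24 ± 0.07 (adjusted p = 0.0272 in limma). A dimmer MBTPS1 probe set gave 0.17 and −0.11, neither with a call. In vehicle MBTPS1 no longer passed without siNT vehicle replicate 3 or any of the 3 siTAZ vehicle arrays (adjusted p = 0.0724 to 0.107), nor with the replicate block, the mean of probe sets or the 2 groups alone (adjusted p = 0.0547 to 0.0708). Under erastin it no longer passed once replicate 2 of the siNT arrays, or 2 or 3 of the siTAZ arrays, was left out (adjusted p = 0.0683 to 0.0887), nor with the mean of probe sets (0.07, adjusted p = 0.597). The escort gene SCAP gave 0.04 and 0.10 and the site-2 protease gene MBTPS2, which is dim, −0.01 and 0.03; neither passed.

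Fatty acid genes were spread about 0, with 0 of 4 rising and 1 falling in vehicle and 1 of each under erastin (medians of −0.09 and 0.03). Among all genes 14.7% rose and 13.9% fell in vehicle, and 15.6% and 12.6% under erastin. ME1, the cytosolic malic enzyme that supplies NADPH, had signals of 11.42, 11.39 and 11.32 in siNT vehicle, 11.12, 11.13 and 11.17 in siTAZ vehicle, 11.36, 11.37 and 11.63 in siNT erastin and 11.10, 10.99 and 11.08 in siTAZ erastin, with every siTAZ array below every siNT array. It fell by 0.24 ± 0.07 (adjusted p = 0.0255 in limma) and by 0.39 ± 0.07 (adjusted p = 0.00123 in limma), and a second bright probe set gave −0.24 ± 0.08 and −0.44 ± 0.08. Leaving out replicate 1 or 2 of either vehicle group ended the ME1 call in vehicle (adjusted p = 0.0703 to 0.0889). The mean of its 3 probe sets, which include a dim one with a mean signal of 4.93, also ended it (−0.13, adjusted p = 0.118). Under erastin, with the actin control signal described further on as a covariate, the ME1 change was −0.19 and did not pass (adjusted p = 0.0503). ACACA, acetyl-CoA carboxylase, gave 0.12 ± 0.05 in vehicle without passing (adjusted p = 0.132 in limma) and rose by 0.22 ± 0.05 under erastin (adjusted p = 0.00884 in limma). FASN, the fatty acid synthase, gave −0.14 ± 0.06 and 0.07 ± 0.06, and ACLY, which splits citrate to acetyl-CoA, −0.04 ± 0.05 and −0.02 ± 0.05; neither passed. The 2 dimmer ACLY probe sets gave −0.06 and −0.20 in vehicle and −0.28 and −0.20 under erastin. Over all probe sets, the −0.20 in vehicle (adjusted p = 0.0218 in limma) and both values under erastin (adjusted p = 0.025 and adjusted p = 0.0231 in limma) passed on their own.

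**Figure D3:**
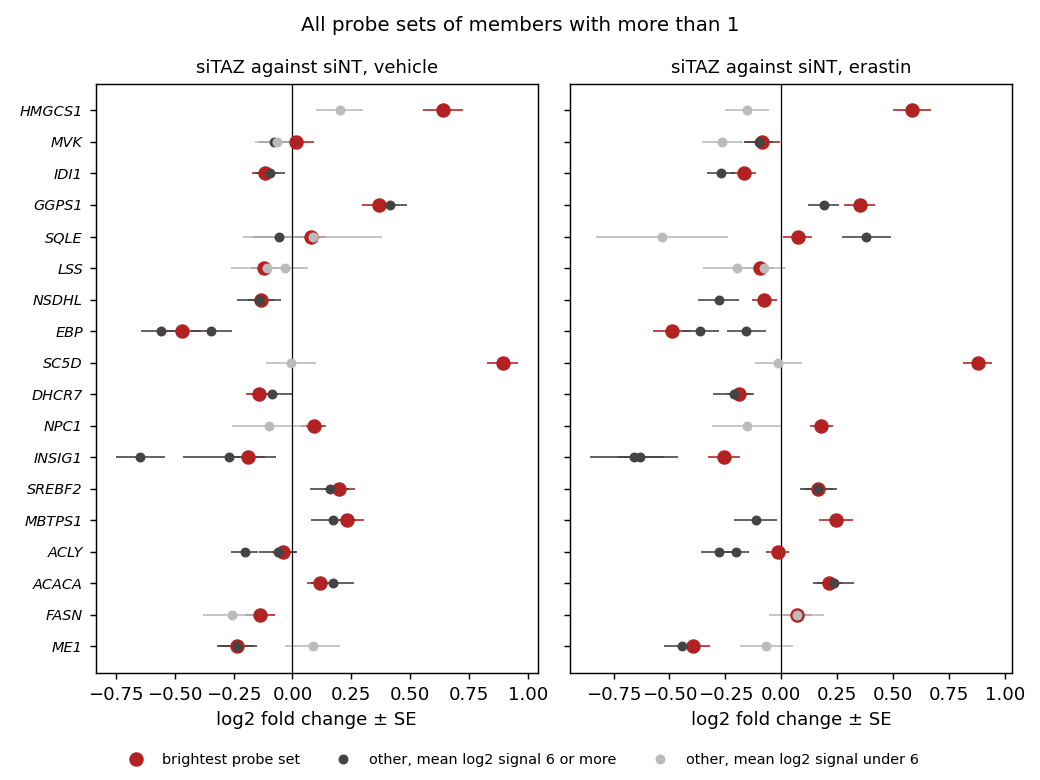
Change after siTAZ (log2 fold change ± SE, x axis) on every probe set of the 18 members that have more than 1, in vehicle (left) and under erastin (right); the brightest is red, others are dark grey, or light grey where their mean log2 signal is under 6. The 3 EBP and 3 INSIG1 probe sets all lie below 0 in both panels, and the light grey HMGCS1 and SC5D probe sets lie away from the red ones.

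The calls differed in how they held. INSIG2, SC5D, EBP, LBR and GGPS1 passed in both media under each of the 23 alternative settings run, including each array left out in turn. Not all of these settings could move a change. Leaving out an array of the other medium altered only the estimate of spread, and INSIG2 and LBR have 1 probe set each. No setting read the dimmer probe sets of SC5D, EBP and GGPS1 alone. In vehicle the count of 11 was 7 without siTAZ vehicle replicate 2 and 17 with array weights (6 up, 11 down). Each setting refits every gene kept, and the share of all genes passing under it is not given here. A shift in these counts is therefore not shown to be particular to the members. The distance between the 3′ and 5′ actin control probes, which widens as RNA breaks down, differed between the erastin groups. In vehicle it was 2.68 ± 0.28 (SD, n = 3) with siNT and 2.65 ± 0.04 (SD, n = 3) with siTAZ. Under erastin it was 2.26 ± 0.69 (SD, n = 3) with siNT and 3.25 ± 0.33 (SD, n = 3) with siTAZ, and for GAPDH 0.15 ± 0.08 and 0.20 ± 0.06. The mean actin distance was thus lower under erastin than in vehicle with siNT and higher with siTAZ. With the actin distance as a covariate 10 members passed, 8 of them among the 14: IDI1, DHCR7, INSIG1, NPC1, ACACA and ME1 were lost (adjusted p = 0.0503 to 0.127 in limma), and MVK (−0.28) and SQLE (0.22) were gained. Of the lost calls, 5 kept changes of about the same size, at −0.17 for IDI1, −0.18 for DHCR7, −0.25 for INSIG1, 0.20 for NPC1 and 0.21 for ACACA, while ME1 went from −0.39 to −0.19. INSIG2 was −1.23 and SC5D 0.99 in that fit. A fit of the 2 erastin groups alone ended the calls of NPC1 (adjusted p = 0.0607), DHCR7 (0.062) and IDI1 (0.0942). In vehicle IDI1, LSS, ACACA and FASN also passed under 1 or 2 settings each, and under erastin ACLY and NPC2 under 1 each.

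Erastin itself changed none of the members past the threshold. In siNT cells 0 of 31 passed in limma against 0.802% of all genes (0.527% up, 0.276% down), with 5 at an unadjusted p under 0.05 (3 up and 2 down). In siTAZ cells 0 of 31 passed against 0.56% of all genes (0.46% up, 0.1% down), with 3 at an unadjusted p under 0.05, all up. The share of all genes at an unadjusted p under 0.05 was not counted. These unadjusted counts and their directions therefore cannot be set against other genes. The members' changes lay between −0.19 and 0.17 in siNT cells and between −0.13 and 0.20 in siTAZ cells, with medians of −0.00 and −0.01 beside −0.00 and 0.01 for all genes. Their 95% intervals reached from −0.33 (FASN) to 0.34 (SREBF1) in siNT cells and from −0.28 (HMGCS1) to 0.38 (PMVK) in siTAZ cells. Groups did not overlap for 10 members in siNT cells (14.4% of all genes) and 8 in siTAZ cells (20.7%).

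The largest erastin change in siNT cells was that of FASN, with signals of 7.27, 7.34 and 7.21 in vehicle and 7.12, 6.97 and 7.15 under erastin. The difference was −0.19 ± 0.06 (adjusted p = 0.264 in limma), and of the other 3 fatty acid genes ACLY and ACACA had −0.10 and −0.11 and ME1 0.08. TM7SF2 (0.17), SREBF1 (0.17) and SREBF2 (0.14) were the largest positive values. In siTAZ cells the largest were PMVK (0.20), NPC1 (0.18) and NPC2 (0.17), and FASN was 0.01. NPC1 had an unadjusted p of 0.00302 and an adjusted p of 0.187 in limma, which became 0.0418 when genes under the median signal were left out and 0.0321 with the trend and robust settings.

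**Figure D4:**
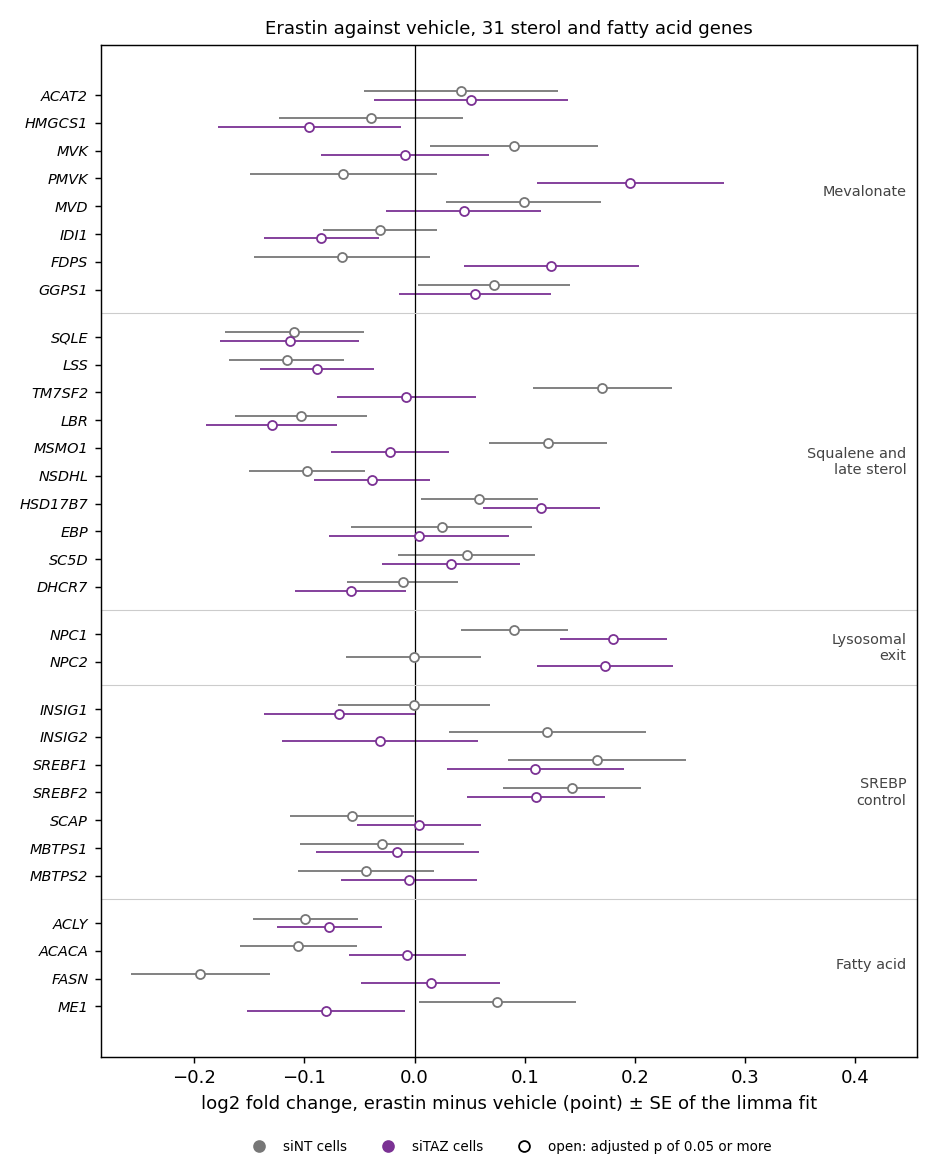
Change of each of the 31 members under erastin as log2 fold change (x axis) by gene and role (y axis), in siNT cells (grey) and siTAZ cells (purple), with bars for the SE of the limma fit (3 arrays per group). All points are open, since no member had an adjusted p under 0.05, and all lie between −0.19 and 0.20.

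The siTAZ effect was not shown to depend on erastin. In the interaction 0 of 31 members passed in limma, as did 0 of all 11963 genes (0%). At an unadjusted p under 0.05 there was 1 member, with no count over all genes to set it against. That was FASN at 0.21 ± 0.09 (adjusted p = 0.77), with PMVK at 0.26 ± 0.12 (adjusted p = 0.77). For the strongest siTAZ changes the interaction was −0.15 for INSIG2, with a 95% interval of −0.43 to 0.12, and −0.01 for SC5D, with an interval of −0.21 to 0.18. Under the alternative settings that kept all arrays, the INSIG2 value ran from −0.17 to 0.04.

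Other genes of lipid metabolism, from a list of 91 of which 76 were measured, also moved both ways after siTAZ. In vehicle 13 rose and 12 fell, or 32.9%, and under erastin 16 rose and 15 fell, or 40.8%, again with all-gene shares of 28.6% and 28.2%. By role, 3 of 8 fatty acid oxidation genes rose and 0 fell in each medium, where 14.7% and 15.6% of all genes rose. Of 14 regulators of SREBP 2 rose and 2 fell in vehicle, and 4 rose and 3 fell under erastin. Of 15 genes of cholesterol esters, efflux and oxysterols 2 rose and 3 fell in vehicle, and 4 of each under erastin. Elongation and desaturation genes gave 2 rises and 2 falls among 10 in each medium, and triglyceride and phospholipid genes 2 and 2 among 10 in vehicle and 2 and 3 under erastin. Genes of fatty acid control and cofactor supply gave 1 rise and 1 fall among 7 in vehicle and 0 and 2 under erastin, and other sterol steps with their redox partners 1 and 2 among 12 in vehicle and 1 and 1 under erastin. CPT1A, which admits fatty acids to mitochondria, rose by 0.88 ± 0.11 (adjusted p = 8.06e-05 in limma) and 1.02 ± 0.11 (adjusted p = 2.72e-05 in limma), and the dehydrogenase gene ACADM by 0.56 ± 0.07 in vehicle. ELOVL5, an elongase of polyunsaturated fatty acids, fell by 0.86 ± 0.05 and by 0.98 ± 0.05. LPIN2, a phosphatidate phosphatase, rose by 0.52 ± 0.06 and 0.61 ± 0.06, and SCARB1, a receptor for high-density lipoprotein, by 0.49 ± 0.06 and 0.52 ± 0.06. MID1IP1, an activator of acetyl-CoA carboxylase, fell by 0.44 ± 0.07 in vehicle. Under erastin the elongation gene HACD3 rose by 0.45 ± 0.10 and PAQR3, which tethers SCAP to the Golgi, fell by 0.59 ± 0.12. Erastin raised 1 of the 76 in siNT cells, the lipoprotein receptor gene VLDLR, by 0.42 ± 0.07 (adjusted p = 0.0242 in limma), and 0 in siTAZ cells.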

How the data were processed

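RNA of 12 samples was measured on Affymetrix 3′ expression arrays. The authors' deposited values are log2 probe set signals from RMA in Affymetrix Expression Console, as the submitters' processing notes list, with no version stated in the sources used here. The design text speaks of comparing siTAZ values with the siNT mean, but the deposited siNT and siTAZ columns both hold plain signals (array medians 6.48 to 6.54). The signals are normalised between arrays, and RMA compresses the changes of dim probe sets. Of 22277 probe sets, 62 controls, 1043 naming several genes and 2108 naming none were left out, which leaves 11963 genes on 19064 probe sets. Groups follow the sample titles, and 0 value columns were unmapped.

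All 12 arrays entered 1 fit with a mean per group in limma 3.58.1 (R 4.3.3; 8 residual and 3.90 prior degrees of freedom), with Benjamini-Hochberg adjustment over all genes. The code was tested on simulated data of the same layout. The labels call the replicates biological but name no separate cultures, so p-values measure the spread between these samples. Same-numbered arrays deviated from their group means with correlations of −0.42 to 0.36, and differently numbered arrays of different groups with −0.42 to 0.34. No pairing by number was seen, though such ranges cannot exclude it, and the main fit used none. Alternatives covered centring, quantile normalisation, filters on dim genes, probe set choice, variance settings, array weights, the groups in the fit, a replicate block, the actin signal and each array left out. Members, roles, lists and tests were chosen with earlier results of these data known. Any member could be named; of the other lipid genes, the 6 largest called changes per comparison. The planned rule for printing promoters found 0 to print, so those shown were chosen afterwards. Sequences are from RefSeq (GRCh38.p14).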

Additional observations from a re-analysis of the deposited data

How the results depend on the processing

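The number of members called stayed within 1.5 times the main count under the settings run, except as given here. After siTAZ in vehicle it was 11, and 17 with array weights. Leaving out each array in turn gave 7 to 12 in vehicle and 10 to 15 under erastin (main count 14), and 0 for both erastin comparisons and the interaction. With the replicate number as a block the counts were 9 in vehicle, 13 under erastin, and 0 in the other 3 comparisons. The settings refit every gene kept, and the all-gene shares passing under them are not given beside these counts. For erastin in siTAZ cells the count was 1 in place of 0 with genes under the 50th percentile left out and with the trend and robust settings, each time NPC1. Over all members, comparisons and alternatives, 3428 values kept their side of the threshold, 49 lost a call, 32 gained one and 0 reversed. Most of the 3428 had no call to lose. Calls could be lost only after siTAZ, where 11 members in vehicle and 14 under erastin had 23 alternatives each. The causes of these shifts were not tested. With 3 arrays per group the members' standard errors were 0.05 to 0.09 in the siTAZ and erastin comparisons, and the signal of MBTPS2 lay near background, which limits what can be read from small changes.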
